A study of Mus musculus with 12 samples.

Results

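Noradrenaline reaches astrocytes through adrenergic receptors and is taken out of the extracellular space by carriers and enzymes, and 8 genes of this system were described here in sorted hippocampal astrocytes. They were the receptor genes Adra1a, Adra1b, Adra2a and Adrb1, the carrier genes Slc22a3 and Slc29a4, the enzyme gene Maoa and the serotonin receptor gene Htr2b. They were taken by name from a table of 56791 gene names, with earlier results of these data known. Of the 8, 6 reached the mean level of 1 FPKM at which a gene was tested, as did 17540 genes in all. FPKM is the number of fragments per kilobase of a gene's exons, scaled to the size of the library, so it allows levels of different genes to be compared.

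Adult naive male mice of 2 genotypes were studied, both with a floxed Tnfrsf1b gene, which encodes the tumour necrosis factor receptor TNFR2. The libraries labelled Ctrl came from Tnfrsf1bfl/fl mice, and those labelled cKO from GfapcreERT2:Tnfrsf1bfl/fl mice, in which the Gfap promoter drives a tamoxifen-inducible Cre recombinase. That promoter is active in astrocytes and also in neural stem cells and ependymal cells, and no untouched Tnfrsf1b genotype was compared. Hippocampal cells were sorted by fluorescence for the astrocyte surface antigen ACSA-2. Each of 6 A numbers (A1, A2 and A8 labelled Ctrl; A4, A9 and A10 labelled cKO) had the libraries S1 and S2, which were averaged into 1 unit, giving n = 3 units per genotype. The labels define neither A nor S and do not say that the A numbers are separate animals, so a p-value measures the spread between these units, which may be technical.

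Noradrenaline is released from fibres of the locus coeruleus. Alpha-1 receptors couple to Gq proteins and release calcium from internal stores, alpha-2 receptors couple to Gi proteins and lower cyclic AMP, and beta receptors couple to Gs proteins and raise cyclic AMP, which in astrocytes mobilises glycogen. Low-affinity, high-capacity carriers such as OCT3 (Slc22a3) and PMAT (Slc29a4) take up noradrenaline, dopamine and serotonin, and monoamine oxidases on the outer mitochondrial membrane break them down.

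The deletion itself could not be read from the table. Tnfrsf1b was listed at 0 in 9 of 12 libraries, at 4 reads (0.0551 FPKM) in S1 of the Ctrl unit A1, and at 10 reads (0.119 FPKM) and 22 reads (0.163 FPKM) in S1 and S2 of A4, which is labelled cKO. A4 thus had the most reads despite its label, and the other cKO units were listed at 0, as were A2 and A8. Values per gene do not show which exons the reads covered. The summed level of 6 microglia markers was 14.8, 12.5 and 19.1 FPKM in A1, A2 and A8. It was 32.9, 24.0 and 20.1 FPKM in A4, A9 and A10, and the part of these cells in the Tnfrsf1b reads was not tested. Directions below therefore compare libraries labelled cKO with libraries labelled Ctrl. Recovered depth was 17311900 to 35323300 reads per library. The summed level of 10 astrocyte markers was 3638 to 4447 FPKM in the Ctrl units and 4347 to 4977 FPKM in the cKO units. The summed level of 8 oligodendrocyte markers was 934 to 2005 FPKM in the Ctrl units and 269 to 639 FPKM in the cKO units, so the groups did not overlap, and all 8 markers were lower in the cKO mean. No gene of the 17540 passed an adjusted p of 0.05 in limma (0%), and 1349 (7.69%) had an unadjusted p under 0.05. With the 12 libraries as separate values and the A number as a random effect, limma called 112 genes, none of them among the 6 tested here. The levels of 2277 genes (13.0%) did not overlap between the units of the groups.

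The sequences just upstream of the genes at the ends of the expression order are shown first, Maoa and Adrb1 as the genes with the highest mean in the Ctrl units and Slc22a3 and Slc29a4 as those with the lowest. Each is the 250 bases before the annotated start site, from RefSeq on GRCm38.p6, 5′ to 3′ on the strand of the gene. Their positions cannot be set against the gene coordinates given below, which did not match a GRCm38 annotation. Capitals mark matches, on either strand, to a set of short motifs, namely the cyclic AMP response element TGACGTCA, its core TGACG, the GC box GGGCGG, the TATA motif TATAAA, the AP-1 motif TGANTCA and the NF-kB consensus.
Maoa chrX:16619448-16619697 (plus strand): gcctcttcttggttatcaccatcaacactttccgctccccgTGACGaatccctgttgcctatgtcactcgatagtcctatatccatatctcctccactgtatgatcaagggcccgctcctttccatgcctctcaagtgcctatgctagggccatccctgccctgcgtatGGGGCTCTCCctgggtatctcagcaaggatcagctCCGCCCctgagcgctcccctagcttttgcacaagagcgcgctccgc
Adrb1 chr19:56721867-56722116 (plus strand): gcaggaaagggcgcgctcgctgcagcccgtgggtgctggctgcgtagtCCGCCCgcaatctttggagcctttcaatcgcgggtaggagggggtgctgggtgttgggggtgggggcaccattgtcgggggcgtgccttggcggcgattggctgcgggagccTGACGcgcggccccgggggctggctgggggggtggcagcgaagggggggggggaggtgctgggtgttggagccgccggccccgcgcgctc
Slc22a3 chr17:12507705-12507954 (minus strand): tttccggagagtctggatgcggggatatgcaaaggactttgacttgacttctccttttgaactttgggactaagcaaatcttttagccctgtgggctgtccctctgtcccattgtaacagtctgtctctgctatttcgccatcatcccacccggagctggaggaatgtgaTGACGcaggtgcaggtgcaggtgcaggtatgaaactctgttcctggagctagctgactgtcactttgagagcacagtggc
Slc29a4 chr5:142701851-142702100 (plus strand): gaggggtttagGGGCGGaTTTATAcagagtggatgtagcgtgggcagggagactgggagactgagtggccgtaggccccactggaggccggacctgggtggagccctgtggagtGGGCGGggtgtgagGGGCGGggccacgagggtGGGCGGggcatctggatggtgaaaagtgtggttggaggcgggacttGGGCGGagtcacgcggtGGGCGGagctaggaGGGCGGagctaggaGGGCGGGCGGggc

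The full response element, which holds the core within it, was in 1.55% of the 32851 RefSeq windows of this length and in none of these 4. The core TGACG was in 17.8% of all windows. It lay 209 bases before the start site in Maoa, 90 in Adrb1 and 80 in Slc22a3. The GC box was in 32.7% of all windows. Slc29a4 held 9 of them, the last of which share bases, while Maoa and Adrb1 held 1 each, 46 and 202 bases before the start site, on the minus strand of the gene. The Slc29a4 window also held 1 TATA motif on the opposite strand, 232 bases before the start site (12.4% of all windows hold one). The Maoa window held 1 NF-kB match 81 bases before the start site (3.90% of all windows), and none of the 4 held the AP-1 motif, which was in 6.75% of windows. The G and C share was 74% in Adrb1, 68.8% in Slc29a4, 56.8% in Maoa and 51.2% in Slc22a3, against a median of 52.4% over all windows. Of the 8 genes, 7 matched a window in the RefSeq table. A match describes letters only.

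In the Ctrl units the order of mean FPKM was Maoa, Adrb1, Adra2a, Adra1a, Adra1b, Htr2b, Slc29a4 and Slc22a3. Maoa stood apart, with a lowest Ctrl unit of 12.5 FPKM against a highest Adrb1 unit of 11.2 FPKM. Every other neighbouring pair in that order overlapped in its Ctrl range, so Adrb1, Adra2a and Adra1a were not ordered beyond their spread. Among the tested genes, the Ctrl mean of Maoa lay at the 84.5th percentile, Adrb1 at the 69.4th, Adra2a at the 62.3rd, Adra1a at the 53.9th, Adra1b at the 18.9th and Htr2b at the 8.09th.

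**Figure D1:**
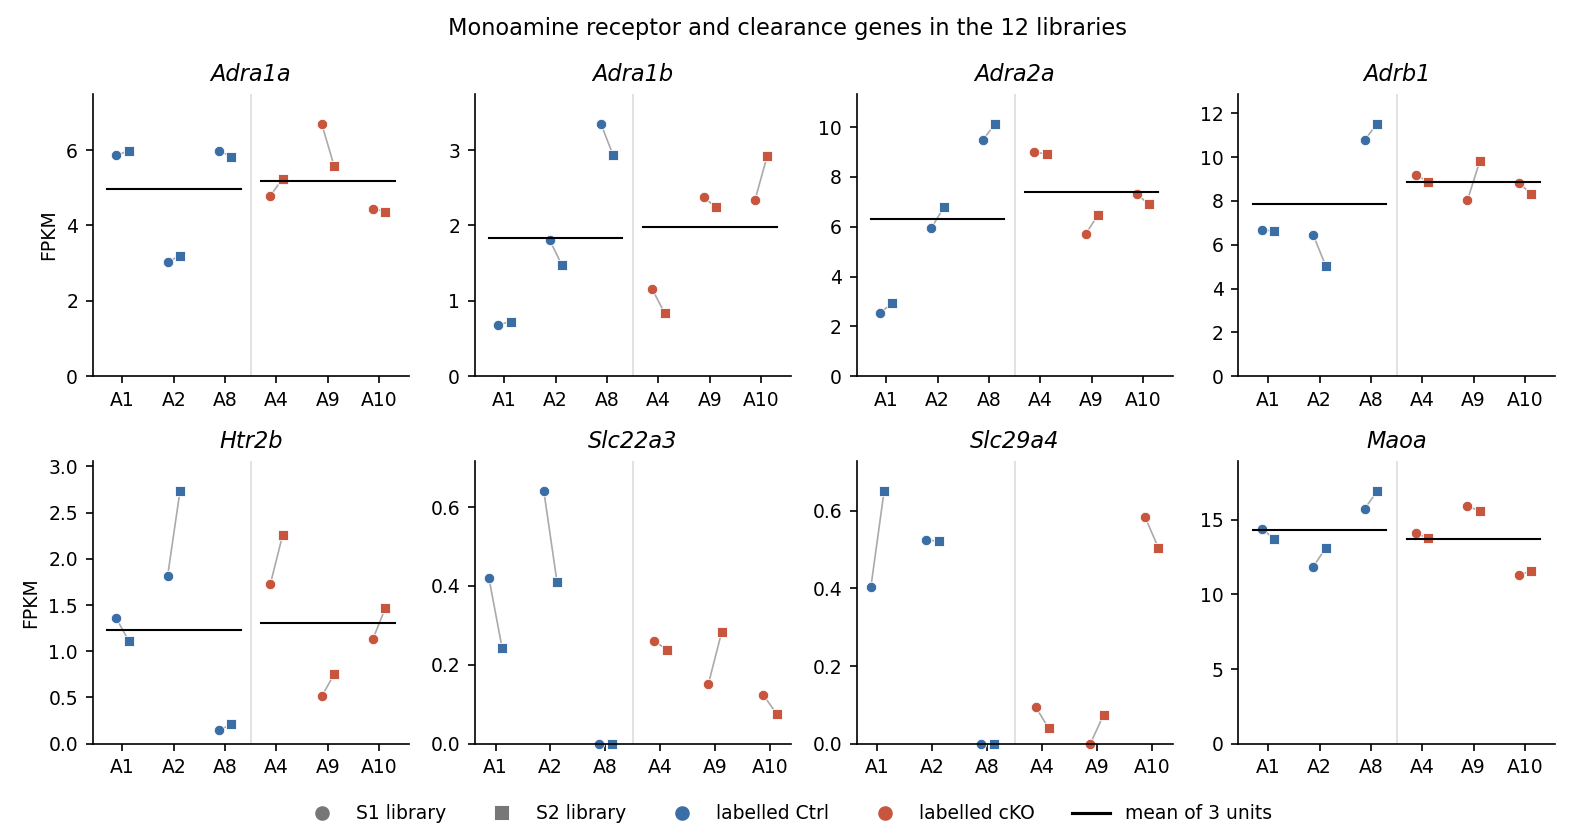
FPKM of each of the 8 genes in the 12 libraries, by A number and label, with 1 panel per gene; points are the S1 and S2 libraries, joined within an A number, and horizontal lines the mean of 3 units (not drawn for Slc22a3 and Slc29a4, which hold libraries at 0). The libraries of 1 A number lie close together for Adra2a and Maoa and less so for Htr2b, as with 1.82 (S1) and 2.73 (S2) in A2. A numbers with the same label differ, as with Adra2a between 2.74 (A1) and 9.81 (A8) in Ctrl.

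Among the receptors that couple to Gq, Adra1a was the more abundant and the more even. Adra1a (ENSMUSG00000045875, protein coding, chr14:66872700-67008617, plus strand; coordinates as in the deposited table, whose build the file does not name) encodes the alpha-1A receptor. Its level was 5.92 FPKM in A1, 3.11 in A2 and 5.90 in A8, and 5.02 in A4, 6.14 in A9 and 4.41 in A10, from 457 to 1626 reads per library. A2 was the lowest unit and A9 the highest, and the groups overlapped. The means were 4.98 ± 1.62 FPKM for Ctrl and 5.19 ± 0.881 for cKO (SD, n = 3 units each). The difference, labelled cKO minus labelled Ctrl on the log2(FPKM + 1) scale, was 0.08 (SE 0.25, 95% interval -0.52 to 0.68, limma adjusted p = 0.978). On this scale a fold change of a low gene is understated.

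Adra1b (ENSMUSG00000050541, protein coding, chr11:43665433-43792037, minus strand), the alpha-1B receptor gene, was lower and less even. It stood at 0.703 FPKM in A1, 1.64 in A2 and 3.14 in A8, and at 0.996 in A4, 2.31 in A9 and 2.63 in A10, from 44 to 312 reads per library. A1 and A4, with different labels, were the low units and A8 the highest, so the groups overlapped over nearly their whole range. The means were 1.83 ± 1.23 FPKM for Ctrl and 1.98 ± 0.866 for cKO (SD, n = 3 units each), a log2 difference of 0.12 (SE 0.42, 95% interval -0.87 to 1.11, limma adjusted p = 0.979). Between the units of 1 group, log2 Adra1b varied with an SD of 0.56, at the 75.5th percentile of tested genes, against a median of 0.32 over all of them, while S1 and S2 of 1 unit differed by a median of 0.17. The spread thus lay between A numbers more than between their libraries.

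Adra2a (ENSMUSG00000033717, protein coding, chr19:54032582-54037413, plus strand) encodes the Gi-coupled alpha-2A receptor. Its level was 2.74 FPKM in A1, 6.36 in A2 and 9.81 in A8, and 8.96 in A4, 6.08 in A9 and 7.10 in A10. The lowest and the highest unit were both labelled Ctrl, and the 3 cKO units lay between them. The means were 6.30 ± 3.53 FPKM for Ctrl and 7.38 ± 1.46 for cKO (SD, n = 3 units each), and the log2 difference of 0.31 (SE 0.38, 95% interval -0.59 to 1.22, limma adjusted p = 0.920) was smaller than the within-group SD of 0.58. Without A1 the difference was -0.10, and without A8 it was 0.66, neither past the threshold.

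Adrb1 (ENSMUSG00000035283, protein coding, chr19:56710631-56721545, plus strand), the gene of the Gs-coupled beta-1 receptor, had the highest mean of the 4 receptors in both groups. It stood at 6.65 FPKM in A1, 5.73 in A2 and 11.2 in A8, and at 9.03 in A4, 8.92 in A9 and 8.57 in A10. The cKO units lay within 1 FPKM of each other, above A1 and A2 and below A8. The means were 7.84 ± 2.90 FPKM for Ctrl and 8.84 ± 0.238 for cKO (SD, n = 3 units each), a log2 difference of 0.20 (SE 0.24, 95% interval -0.36 to 0.76, limma adjusted p = 0.914). Without A8 the difference was 0.46 (limma adjusted p = 0.254), without A2 it was 0.027 and without A1 it was 0.12, none past the threshold.

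The make-up of the adrenergic signal differed more between A numbers than between labels. The summed FPKM of the 4 receptors was 16.0 in A1, 16.8 in A2 and 30.0 in A8, and 24.0 in A4, 23.5 in A9 and 22.7 in A10. A8 was the highest and A1 and A2 the lowest, so the groups overlapped. Adrb1 took a similar share of that sum in every unit, from 34.0% in A2 to 41.5% in A1. Adra2a took 17.1% in A1 and 25.9% to 37.8% in the other 5 units. Adra1a took 36.98% in A1 and 18.5% to 26.2% in the others, and Adra1b took 4.15% (A4) to 11.6% (A10).

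**Figure D2:**
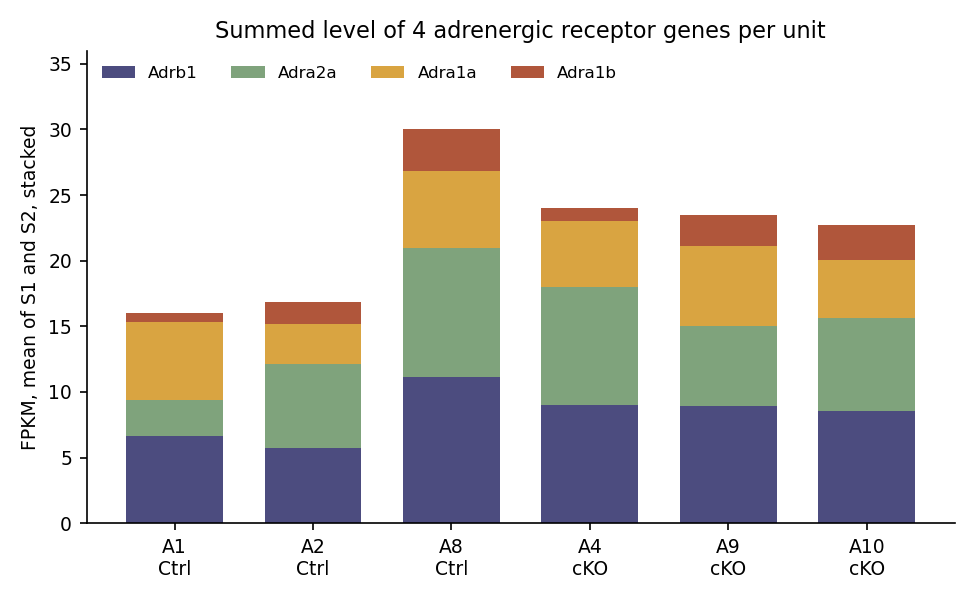
Summed FPKM of Adra1a, Adra1b, Adra2a and Adrb1 in each of the 6 units (bars start at 0, each unit is the mean of S1 and S2), split by receptor. A8, labelled Ctrl, has the highest sum at 30.0, A1 and A2 the lowest at 16.0 and 16.8, and the 3 cKO units lie between 22.7 and 24.0.

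The 3 Ctrl units were therefore not alike for these receptors. A8 exceeded the mean of A1 and A2 by 1.04 for Adra2a, 0.96 for Adra1b, 0.76 for Adrb1 and 0.37 for Adra1a on the log2 scale, at the 93.5th, 92.7th, 89.7th and 78.2nd percentiles of that difference over tested genes, whose median was -0.08. Htr2b went the other way, by -1.19 (9.55th percentile). A8 had 934 FPKM of summed oligodendrocyte markers against 1840 in A1 and 2005 in A2, and 52.5 FPKM of ependymal markers against 227 and 206. The part of cell composition in these differences between Ctrl units was not tested. In bulk samples, fewer cells of a type and less RNA per cell cannot be told apart.

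The other adrenergic receptor genes were at or near the limit of detection, and 0 of 5 reached the level for testing. Adrb3 ranged from 0.0204 FPKM (A10) to 0.597 FPKM (A9), Adra1d was listed at 0 in A2, A8 and A10, and Adra2b was listed at 0 in all 12 libraries.

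Of the uptake carriers, both stood below 1 FPKM in every unit. Slc22a3 (ENSMUSG00000023828, protein coding, chr17:12637847-12726591, minus strand) encodes the carrier OCT3. In the Ctrl libraries S1 and S2 it stood at 0.419 and 0.242 FPKM in A1, at 0.640 and 0.410 in A2, and at 0 in both of A8. In the cKO libraries it stood at 0.262 and 0.238 FPKM in A4, 0.152 and 0.283 in A9, and 0.123 and 0.0761 in A10. The Ctrl units thus held both the highest unit, A2, and one listed at 0, with the cKO units between. A count of 0 in A8 allows a level of up to 0.0260 FPKM, from 3 pairs, entered as 6 reads, over its libraries. Where the gene was above 0 it rested on 10 to 52 reads per library. The exact two-sided permutation test over the 20 arrangements of the 6 units, with 0.1 as the lowest p it can give, gave p = 0.7.

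Slc29a4 (ENSMUSG00000050822, protein coding, chr5:142678267-142708245, plus strand), which encodes PMAT, stood at 0.404 and 0.651 FPKM in the S1 and S2 libraries of A1, 0.525 and 0.522 in A2, and 0 in both of A8. It stood at 0.0952 and 0.0396 FPKM in A4, 0 and 0.0743 in A9, and 0.583 and 0.504 in A10. A1, A2 and A10 were high, and the low units, A8, A4 and A9, carried both labels. The units rested on 80, 68 and 0 reads in A1, A2 and A8 and on 10, 6 and 72 reads in A4, A9 and A10, and 0 reads in A8 allows up to 0.0410 FPKM. The exact two-sided permutation test gave p = 1.

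Summed markers of the ventricle lining were likewise highest in A1, A2 and A10. The summed level of 6 choroid plexus markers (Ttr, Folr1, Kl, Clic6, Kcnj13 and Otx2) was 70.9, 73.6 and 12.9 FPKM in A1, A2 and A8 and 7.12, 4.37 and 460 FPKM in A4, A9 and A10. That of 6 ependymal markers was 227, 206 and 52.5 FPKM and 111, 43.9 and 146 FPKM. In A1, A2 and A10 most of the choroid plexus sum was Ttr, at 58.4, 64.5 and 433 FPKM. Kcnj13 departed from that order, at 3.55 FPKM in A8 against 2.75 in A1 and 0.210 in A2. Each of the other choroid plexus markers was highest in A1, A2 and A10. The part of these cells in the Slc29a4 values was not tested. A pair of other organic cation carriers, outside the uptake of noradrenaline, had higher levels. Slc22a4, an ergothioneine carrier, ranged from 6.40 to 11.9 FPKM and Slc22a5, a carnitine carrier, from 5.14 to 8.43 FPKM, with log2 differences of 0.04 (SE 0.23) and -0.02 (SE 0.21). Of 7 other carriers 2 were tested, and Slc29a1, an equilibrative nucleoside carrier, ranged from 0.118 to 1.58 FPKM.

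**Figure D3:**
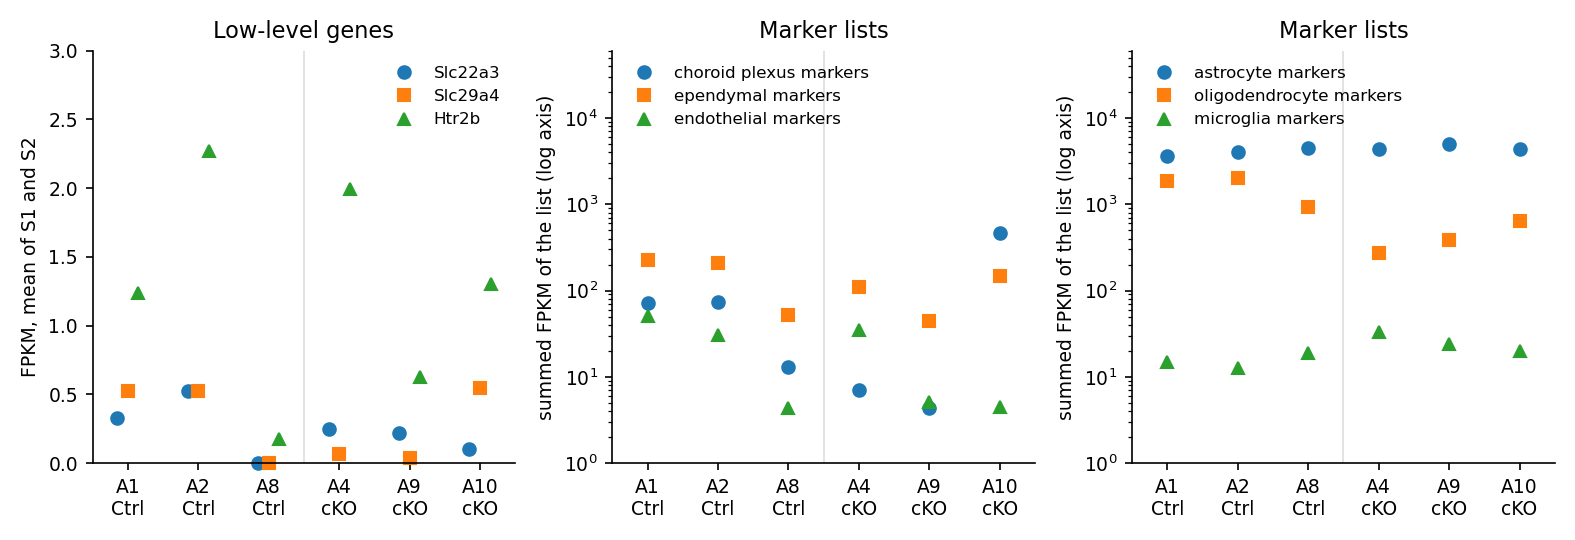
Left, FPKM of Slc22a3, Slc29a4 and Htr2b in each of the 6 units (points are shifted sideways within a unit for legibility); middle and right, summed FPKM of 6 marker lists on a log axis. Slc22a3 and Slc29a4 are at 0 in A8, and the choroid plexus sum is highest in A10 (460) and lowest in A9 (4.37).

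Maoa (ENSMUSG00000025037, protein coding, chrX:16485937-16554057, plus strand), the gene of the monoamine oxidase that prefers noradrenaline and serotonin, was the most abundant and the most even of the 8. It stood at 14.1 FPKM in A1, 12.5 in A2 and 16.3 in A8, and at 13.9 in A4, 15.8 in A9 and 11.4 in A10. The lowest and second lowest units carried different labels, as did the highest and second highest. The means were 14.3 ± 1.93 FPKM for Ctrl and 13.7 ± 2.17 for cKO (SD, n = 3 units each), and the log2 difference was -0.06 (SE 0.17, 95% interval -0.45 to 0.34, limma adjusted p = 0.975). Its within-group SD of 0.20 lay at the 25.5th percentile of tested genes. With the libraries scaled to the same 75th percentile the difference was 0.016, and no direction is given for Maoa.

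The other 9 genes of monoamine breakdown were all tested, 3 above and 6 below 0 with a median log2 difference of -0.05, and none passed the adjusted threshold. Maob, the gene of the oxidase that prefers phenylethylamine, was more abundant than Maoa in every unit, at 31.9, 32.8 and 38.6 FPKM in A1, A2 and A8 and at 39.9, 32.7 and 34.1 FPKM in A4, A9 and A10 (log2 difference 0.05, SE 0.13, limma adjusted p = 0.975). Aldh2, which oxidises the aldehydes that the oxidases make, ranged from 21.5 to 29.1 FPKM, and Aldh1a1 from 12.9 to 23.8 FPKM. Akr1a1, an aldehyde reductase gene, had a log2 difference of -0.40 (SE 0.15, limma adjusted p = 0.607) with units that did not overlap.

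Htr2b (ENSMUSG00000026228, protein coding, chr1:86026748-86039692, minus strand) encodes the Gq-coupled serotonin receptor 2B. It stood at 1.24 FPKM in A1, 2.27 in A2 and 0.176 in A8, and at 1.99 in A4, 0.630 in A9 and 1.30 in A10, from 6 to 170 reads per library. A8 was the lowest and A2 the highest, both labelled Ctrl, so the cKO units lay inside the Ctrl range. The means were 1.23 ± 1.05 FPKM for Ctrl and 1.31 ± 0.681 for cKO (SD, n = 3 units each), a log2 difference of 0.13 (SE 0.48, 95% interval -1.01 to 1.26, limma adjusted p = 0.981). Without A8 it was -0.27. Its within-group SD of 0.61 was the highest of the 6 tested genes. The summed level of 6 endothelial markers was 51.3, 30.9 and 4.35 FPKM in A1, A2 and A8 and 35.0, 5.07 and 4.48 FPKM in A4, A9 and A10. Their part in the Htr2b values was not tested.

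Of 12 other serotonin receptor genes, 2 were tested. Htr5b stood between 2.96 FPKM (A8) and 8.30 FPKM (A1) in the Ctrl units and between 2.23 FPKM (A9) and 11.8 FPKM (A10) in the cKO units, above Htr2b in every unit (log2 difference 0.35, SE 0.58, limma adjusted p = 0.950). Htr6, a Gs-coupled receptor gene, ranged from 2.88 to 4.67 FPKM. Htr2c, which is abundant in choroid plexus, was at 2.15 FPKM in A10 and at most 0.318 FPKM in the other 5 units.

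For the 8 genes as a whole, 0 of 6 tested passed the adjusted threshold (0% of all tested genes), 0 of 6 had an unadjusted p under 0.05 (7.69% of all tested genes), and 0 of 8 had units that did not overlap (13.0%). Of the 6 tested, 5 lay above 0 and 1 below, with a median of 0.12 against -0.01 over all tested genes, of which 49.2% lay above 0. A p that misses the threshold does not show equal levels: the 95% intervals reached from -1.01 to 1.26 for Htr2b, from -0.59 to 1.22 for Adra2a and from -0.45 to 0.34 for Maoa, the narrowest of the 6. With the level of the oligodendrocyte markers as a covariate, the differences of the 4 adrenergic receptors changed sign, to -0.42 (SE 0.47) for Adra1a, -0.037 (SE 0.86) for Adra1b, -0.55 (SE 0.68) for Adra2a and -0.44 (SE 0.38) for Adrb1. The summed marker level did not overlap between the groups, so label and covariate are poorly told apart in this fit. In the same fit Maoa was -0.52 (SE 0.26), outside its interval without the covariate, and Htr2b was 0.95 (SE 0.92). None of the 6 passed the threshold there (lowest limma adjusted p 0.777, for Maoa).

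**Figure D4:**
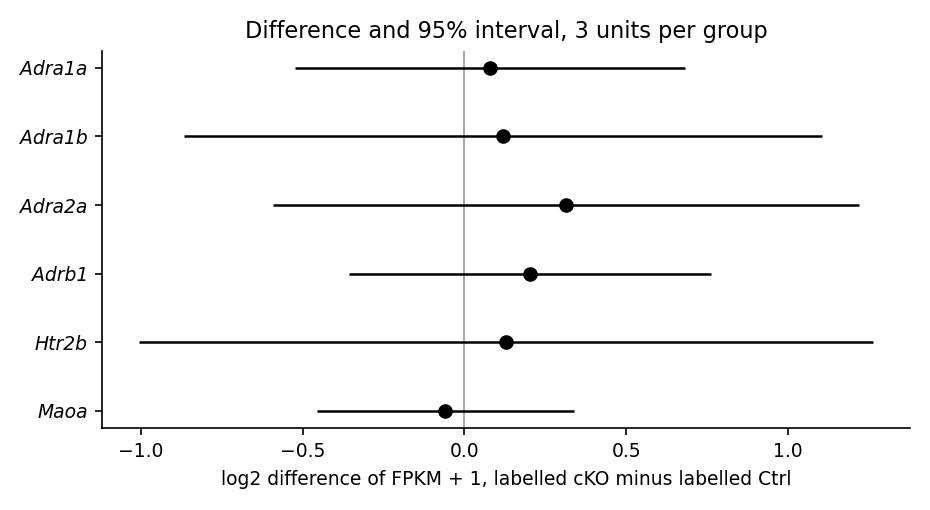
Log2 difference of FPKM + 1, labelled cKO minus labelled Ctrl, of the 6 tested genes with its 95% limma interval. Every interval includes 0, and the narrowest is that of Maoa (-0.45 to 0.34) and the widest that of Htr2b (-1.01 to 1.26).

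The rest of the pathway was given by 11 lists of 101 genes without the 8. Of these 63 were tested, 24 above and 39 below 0, with a median of -0.08, and none passed the adjusted threshold (smallest limma adjusted p 0.380). An unadjusted p under 0.05 was found for 7 of 63 (11.1%, against 7.69% of all tested genes), and units that did not overlap for 11 of 63 (17.5%, against 13.0%), 5 higher and 6 lower.

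Genes of noradrenaline synthesis and of the noradrenergic terminal were mostly listed at or near 0. Th, Dbh and Slc6a2, the genes of tyrosine hydroxylase, dopamine beta-hydroxylase and the neuronal noradrenaline transporter, were listed at 0 in all 12 libraries. Slc18a2, the gene of the vesicular monoamine transporter VMAT2, ranged from 0.866 to 2.24 FPKM with overlapping units (log2 difference 0.15, SE 0.30). Ddc, the gene of aromatic amino acid decarboxylase, was at 1.79, 2.96 and 1.46 FPKM in the Ctrl units and at 0.970, 0.264 and 0.406 FPKM in the cKO units, which did not overlap (log2 difference -0.99, SE 0.36, limma adjusted p = 0.590). The dopamine receptor genes Drd1 and Drd2 were listed at 0 in all libraries, and 0 of 5 dopamine receptors were tested.

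In the Gq and calcium arm, 10 of 13 genes were tested, 6 above and 4 below 0 with a median of 0.11, and none passed. Gnaq, the Gq alpha subunit gene, ranged from 27.6 to 34.4 FPKM (log2 difference -0.09, SE 0.12). Plcb1, a phospholipase that Gq activates, ranged from 16.9 to 23.4 FPKM (0.17, SE 0.15). Itpr2, the calcium release channel of astrocytes, was at 13.6, 15.9 and 20.8 FPKM in A1, A2 and A8 and at 21.05, 21.9 and 20.53 FPKM in A4, A9 and A10 (0.34, SE 0.17, limma adjusted p = 0.723). A1 and A2 were the low units for Itpr2, as they were for the receptor sum.

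In the Gi arm, 5 of 7 genes were tested and all 5 lay below 0, with a median of -0.16, and none passed. Gnai1, a Gi alpha subunit gene, stood at 25.8, 21.2 and 11.99 FPKM in A1, A2 and A8 and at 6.41, 5.11 and 10.1 FPKM in A4, A9 and A10. The groups did not overlap, and the log2 difference of -1.31 (SE 0.33, limma adjusted p = 0.380) had the smallest p of the 63. The oligodendrocyte marker sum was likewise highest in A1 and A2 and lowest in A4 and A9 (1840, 2005 and 934 FPKM in A1, A2 and A8, and 269, 383 and 639 FPKM in A4, A9 and A10), and its part in the Gnai1 values was not tested. The more abundant Gnao1 and Gnai2 ranged from 96.1 to 123 FPKM and from 49.9 to 62.6 FPKM, with differences of -0.06 (SE 0.14) and -0.08 (SE 0.13).

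In the Gs and cyclic AMP arm, 17 of 19 genes were tested, 9 above and 8 below 0 with a median of 0.02. Prkaca, a catalytic subunit gene of protein kinase A, was at 14.9, 18.0 and 15.5 FPKM in the Ctrl units and at 20.9, 20.7 and 23.3 FPKM in the cKO units, which did not overlap (0.41, SE 0.13, limma adjusted p = 0.500). Prkacb, another catalytic subunit gene, went the other way (-0.37, SE 0.16, limma adjusted p = 0.650). It was at 16.7, 16.6 and 13.0 FPKM in the Ctrl units and at 10.9, 10.8 and 13.4 FPKM in the cKO units, with overlap between A8 and A10. Adcy2, an adenylyl cyclase gene, was at 29.8, 28.4 and 25.1 FPKM and at 33.7, 35.7 and 33.2 FPKM (0.29, SE 0.11, limma adjusted p = 0.618), like Prkaca without overlap. Adcy5, another cyclase, was at 4.41, 3.62 and 2.37 FPKM and at 1.05, 1.08 and 2.38 FPKM (-0.85, SE 0.31, limma adjusted p = 0.590), with overlap between A8 and A10. Gnas, the Gs alpha subunit gene, was even at 27.2 to 30.9 FPKM.

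Of the receptor kinases and arrestins, which switch receptors off after use, 7 of 7 were tested, 2 above and 5 below 0 with a median of -0.12. The most abundant were Grk3 (21.3 to 31.6 FPKM) and Arrb1 (22.1 to 29.9 FPKM), with differences of 0.22 (SE 0.16) and -0.12 (SE 0.13). The list of early genes that cyclic AMP can induce had the lowest median of the pathway lists, -0.59. In it 1 gene lay above and 8 below 0, with none past the threshold. These levels are not a measure of cyclic AMP alone, and the part of tissue handling and sorting in them was not tested. Fos stood at 403, 494 and 120 FPKM in A1, A2 and A8 and at 206, 86.4 and 192 FPKM in A4, A9 and A10, so A8 was below 2 of the cKO units (log2 difference -0.93, SE 0.58, limma adjusted p = 0.809). Nr4a2, an early transcription factor gene, was at 5.87, 8.24 and 3.88 FPKM and at 2.27, 1.61 and 3.71 FPKM (-0.99, SE 0.32, limma adjusted p = 0.516).

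**Figure D5:**
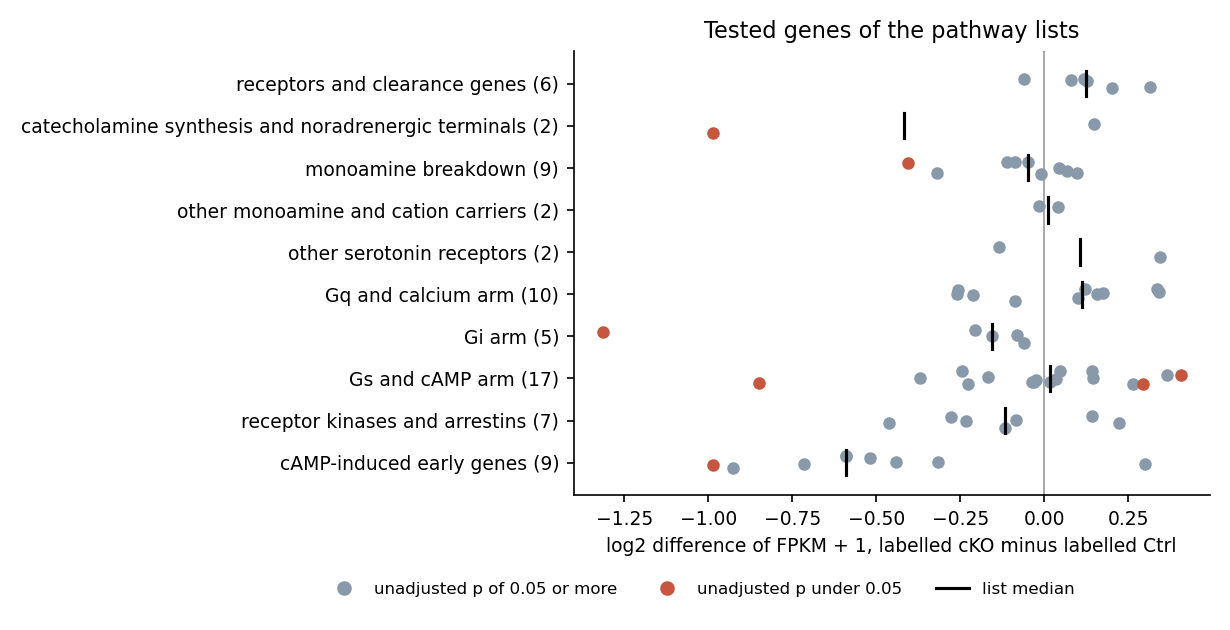
Log2 difference of FPKM + 1, labelled cKO minus labelled Ctrl, of each tested gene (point) in the 8-gene group and in the lists with tested genes, with the list median as a bar; the number tested is in brackets. The receptors and clearance genes lie near 0 with a median of 0.12, and the cyclic AMP-induced early genes have a median of -0.59, with no gene past the adjusted threshold.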

How the data were processed

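RNA from sorted hippocampal astrocytes was made into SMART-Seq V4 libraries and sequenced as paired reads of 125 bases, per the labels' protocols. The submitters' processing notes name FastQC, STAR, featureCounts and DESeq2, with no versions, and the builds mm10 and GRCm38. The deposited table holds FPKM values of 56941 genes made by the authors, and an exonic length per gene. Every library's FPKM, multiplied by length in kilobases, added up to 1000000. Gene coordinates equalled those of GENCODE M21 on GRCm38 for 2.70% of 51948 matched identifiers and for 0 of the 8 genes described, so they are given as deposited. They cannot be set against the positions of the promoter windows, which are on GRCm38.p6. A symbol was missing for 310 rows, and rows sharing a symbol (147 symbols) were summed.

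Reads per value were worked out from the spacing of low FPKM values. Between 82.8% and 86.3% of a library's detected genes then had a whole number of reads (tolerance 0.02). Even numbers made up 72.6% to 80.4% of those from 1 to 20, which is how a pair entered as 2 reads would look. Limits for a count of 0 are therefore 3 pairs, or 6 reads, and cover counting error only, since there are no molecular identifiers.

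S1 and S2 were averaged as log2(FPKM + 1), and limma 3.58.1 (R 4.3.3) compared the 3 units per genotype (two-sided, with a variance trend, Benjamini-Hochberg adjustment over all 17540 genes with a mean of at least 1 FPKM, threshold 0.05). Of the genes below that level, Slc22a3 and Slc29a4 are given with a two-sided exact permutation test, and the others that are named are given without a test. Python 3.11.15 drew the figures. The 8 genes and the gene lists were chosen with earlier results of these data known. From each list, the 3 genes with the highest mean FPKM and those with an unadjusted p under 0.05 could be named with values, and some genes listed at 0 were named for their role. Prkacb was named beside Prkaca as a catalytic subunit gene of the same kinase. Some genes of the lists are not reported here. Motif searches read both strands of RefSeq windows. The 19 alternatives changed the pseudocount, filter, scaling, variance model, averaging, units and an oligodendrocyte covariate. The script was tested on simulated data.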

Additional observations from a re-analysis of the deposited data

How the results depend on the processing

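The count of 0 genes past the threshold was also found under 16 of 19 alternatives. It was 112 with the 12 libraries as separate values and the A number as a random effect, and 80 with the replicate block added. Without that block, the consensus over genes of the correlation within an A number, after the group fit, was 0.915. Leaving out 1 A number gave 0 to 1, the 1 arising without A1. Replicate numbers stand for S1 and S2 within an A number, so the replicate block does not pair Ctrl with cKO samples. None of the 6 tested genes passed the threshold in any alternative (lowest limma adjusted p 0.254). Slc22a3 and Slc29a4 were tested only with no filter or a filter of 0.1 FPKM (lowest adjusted p 0.895). Of 140 values for the 8 genes, 125 kept their sign. Maoa was 0.016 under 75th percentile scaling. With the oligodendrocyte marker level as a covariate, which itself separates the groups, Adra1a was -0.42, Adra1b -0.037, Adra2a -0.55 and Adrb1 -0.44, while Maoa was -0.52 and Htr2b 0.95; the cause was not tested. Leaving out 1 A number gave ranges of -0.17 to 0.20 for Adra1a, -0.20 to 0.44 for Adra1b, -0.10 to 0.66 for Adra2a, 0.027 to 0.46 for Adrb1, -0.16 to 0.057 for Maoa, -0.27 to 0.46 for Htr2b, -0.26 to 0.042 for Slc22a3 and -0.35 to -0.045 for Slc29a4. The median log2 difference of all tested genes was 0.058 under 75th percentile scaling and 0.016 under median of ratios scaling, against -0.006 without scaling. Slc22a3 and Slc29a4 rest on at most 102 reads per unit, and the depth limits what could be seen of them.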

Other observations

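By Pearson's r of log2(FPKM + 1) over the 6 units, the tested genes with the pattern most like Adra2a were Kalrn (0.995) and Grin3a (0.990), those most like Adra1b were Dym (0.993) and Dok5 (0.987), and the gene most like Adra1a was Lysmd2 (0.991). Those most like Htr2b with a descriptive name were Myl6b (0.991) and Tpr (0.989), and the gene most like Adrb1 with a descriptive name was Zfp709 (0.991). The units share their libraries, depth and cell composition, and each gene was picked as the highest of 17540, so r describes these units only.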
